A study of Mus musculus with 18 samples.

Results

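Most of the genes described here encode receptors with which macrophages recognise microbes, sugars, antibodies and lipids. They were taken by name as the Toll-like receptors (Tlr), the C-type lectin genes named Clec, the Siglecs, the IgG Fc receptors (Fcgr) and the Cd300 family, and a gene was kept if its read counts added up to at least 50 over 18 libraries. That rule kept 52 of the 64 genes with such names, out of 34745 genes in the table. All 52 are called receptors below for short, although some, such as Clec11a and Clec16a, do not encode receptors. Just inside it were Cd300c with 58 counts and Cd300e with 59, and just outside it were Clec2g with 38 and Clec2e with 25. RNA was sequenced from bone marrow-derived macrophages (BMDMs) of littermate mice a few weeks old, labelled Zmat1 knockout (KO) or wild type (WT), with Zmat1 removed from the whole animal according to the study. All cells were grown with M-CSF, the growth factor that turns marrow cells into macrophages. The 6 groups of 3 libraries were WT and KO cells with M-CSF alone (day 0), and WT and KO cells with M-CSF and RANKL, the cytokine that turns macrophages into bone-resorbing osteoclasts, for 1 day or for 3 days. The labels do not say which libraries came from separate animals, so p-values measure the spread between these libraries, which may be technical.

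Each class of receptor has its own way of signalling. Toll-like receptors pair up when they bind microbial molecules, some at the cell surface (lipids, lipoproteins, flagellin) and some inside endosomes (nucleic acids), and signal through the adaptors Myd88 and Ticam1. Activating Fc receptors and several C-type lectins work through small partner chains (Fcer1g, Tyrobp) that carry ITAM motifs and recruit the kinase Syk, whereas inhibitory members such as Fcgr2b, most Siglecs and Cd300a carry ITIM motifs and recruit phosphatases such as Ptpn6 and Inpp5d. The ITAM route also provides the co-stimulation that osteoclast precursors need beside RANKL, and Siglec15, which binds sialylated glycans and pairs with Tyrobp, is a known receptor of osteoclasts.

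Library totals ran from 13789775 to 17559958 counts. In these counts the targeted gene did not separate the labels. Zmat1 stood at 2.19 to 7.50 CPM (counts scaled to a common library size) in the libraries labelled WT and at 3.49 to 7.61 CPM in those labelled KO. Its log2 difference over the 3 days was 0.42 ± 0.23 (SE; edgeR, adjusted p = 0.35). The study itself reports genotyping by PCR of tail DNA and a qPCR check of Zmat1 mRNA in BMDMs of both genotypes. Which part of the gene was deleted was not analysed here. "WT" and "KO" below therefore mean the libraries so labelled. Titles were written in 2 styles, with a double hyphen in 5. These are WT day 0 library 1, KO day 0 library 2, KO day 1 libraries 1 and 2, and a WT day 1 library. None is from day 3, so title style is partly tied to day. WT day 1 has a pair of libraries numbered 1 and none numbered 3. Macrophage markers (8 genes) summed to 30042 to 58012 CPM in WT day 0 and 6446 to 13326 in WT day 3. In KO they summed to 33983 to 60433 and 8797 to 17579. Osteoclast markers (10 genes) summed to 224 to 649 CPM in WT day 0 and 16039 to 23381 in WT day 3. Their KO sums were 670 to 988 and 8293 to 17734. Their part in the differences between the labels was not tested. Markers of other cells were present too. Stromal genes (6) summed to 64.0 to 3953 CPM in WT day 0, 851 to 3014 in KO day 0, 9498 to 12411 in WT day 3 and 16484 to 24678 in KO day 3. Neutrophil genes (10) summed to 737 to 3189 CPM in WT day 0 and 3848 to 12362 in KO day 0.

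The receptors as a whole were lower after 3 days of RANKL. They took 0.949% to 1.15% of all counts in the WT day 0 libraries and 0.207% to 0.387% in WT day 3, and 0.794% to 1.09% against 0.228% to 0.369% in KO. Of the 52 genes, 47 had enough counts to be tested with edgeR's quasi-likelihood test, and a gene was called at a Benjamini-Hochberg adjusted p under 0.05 over all 14241 genes tested. In WT, 37 of the 47 fell by day 3, where 26.5% of all genes fell, and 2 rose, where 23.7% of all genes rose. The 8 without a call were Clec12a, Clec2d, Clec4a2, Clec4a4, Clec4e, Clec5a, Siglecg and Tlr4. In KO, 34 fell (22.3% of all genes) and 2 rose (20.2%). The 2 that rose, under both labels, were Siglec15 and Clec11a, the latter a secreted growth factor and no receptor. The median log2 fold change of the tested receptors was -2.35 in WT and -1.92 in KO, beside -0.03 and -0.01 over all genes tested. Day 3 and day 0 libraries did not overlap for 38 lower and 3 higher receptors in WT, against 31.0% and 31.5% of all genes, and for 36 lower and 2 higher in KO, against 29.4% in each direction. In bulk RNA, fewer macrophages and less RNA per macrophage cannot be told apart. Scaling by total counts in place of TMM, edgeR's scaling factor, shifted the median of all genes by 0.37 log2 units in WT and 0.29 in KO. Then 34 WT receptors were called (32 lower, 2 higher), beside 51.8% of all genes (2221 lower, 5153 higher). In KO 29 were called (27 lower, 2 higher), beside 43.8% of all genes (1963 lower, 4274 higher).

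**Figure D1:**
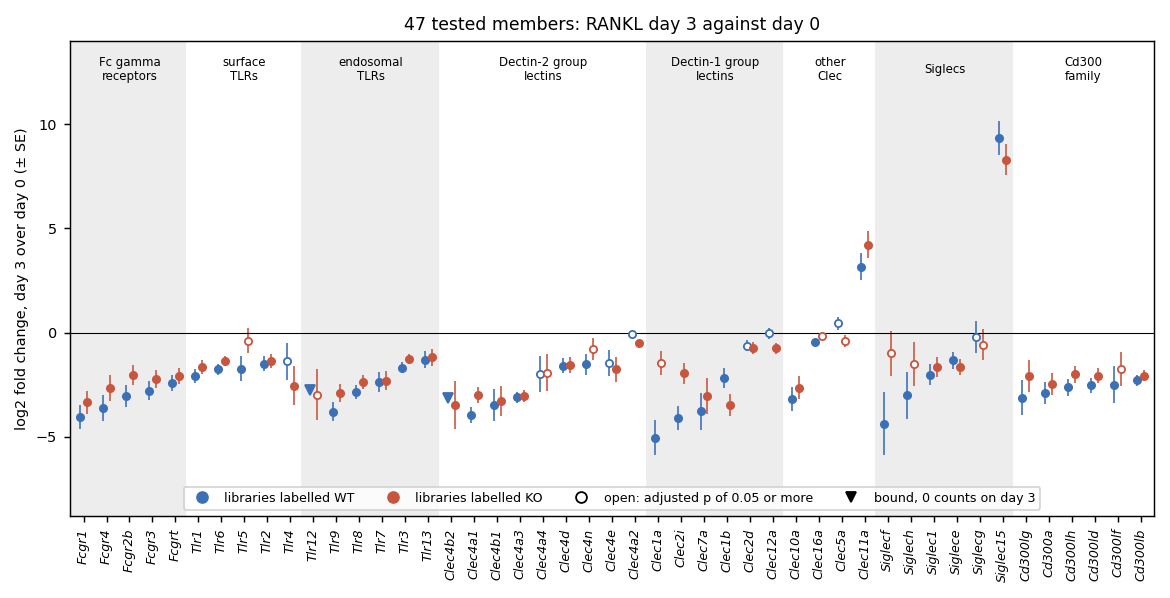
Log2 fold change of RANKL day 3 over day 0 (vertical axis, ± SE) for the 47 tested receptors by class, from the libraries labelled WT (blue) and KO (red). Open symbols had an adjusted p of 0.05 or more, and triangles are bounds for Tlr12 and Clec4b2, which had 0 counts in WT day 3. Most symbols lie below 0, and Siglec15 and Clec11a stand above it.

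All 5 IgG Fc receptor genes fell in both labels, where 26.5% of all genes fell in WT and 22.3% in KO. Fcgr1, the high-affinity IgG receptor, stood at 365, 172 and 519 CPM in the 3 WT day 0 libraries and at 21.3, 33.6 and 8.14 in WT day 3, a log2 fold change of -4.07 ± 0.57 (SE; 16.8-fold lower; adjusted p = 7.3e-05). In KO it stood at 471, 338 and 389 CPM and then at 40.7, 23.7 and 53.5 (-3.34 ± 0.55; adjusted p = 0.00039). The day 3 libraries lay below all day 0 libraries under both labels. Fcgr4, an activating receptor for IgG2 antibodies, went from 180, 77.9 and 211 CPM to 16.1, 12.9 and 9.03 in WT (-3.62 ± 0.64, adjusted p = 0.00042) and from 185, 143 and 103 to 25.7, 13.3 and 28.6 in KO (-2.67 ± 0.61, adjusted p = 0.0035). Fcgr3, another activating low-affinity receptor, was the most abundant of the class per length on day 0 (355 FPKM, fragments scaled to gene length and library size, as deposited, in WT). Its 1446, 1958 and 1076 CPM in WT day 0 became 231, 297 and 124 in WT day 3 (-2.78 ± 0.44, adjusted p = 0.00017). The inhibitory receptor Fcgr2b went from 1100, 1465 and 844 CPM to 153, 189 and 70.3 in WT (-3.04 ± 0.51, adjusted p = 0.00027). Its KO values went from 1013, 870 and 831 to 188, 149 and 322 (-2.04 ± 0.49, adjusted p = 0.0045). Activating and inhibitory receptors both fell, with no overlap between day 0 and day 3. In KO, Fcgr3 stood at 1248, 1274 and 1278 CPM and then at 274, 190 and 351 (-2.22 ± 0.43, adjusted p = 0.0011). Fcgrt, the neonatal Fc receptor that recycles IgG from endosomes, fell least of the 5 in WT, from 472, 519 and 339 CPM to 81.8, 107 and 63.5 (-2.40 ± 0.39, adjusted p = 0.00021). KO values went from 450, 405 and 425 to 107, 92.9 and 103 (-2.08 ± 0.38, adjusted p = 0.00083). Fcgr3 and Fcgr2b share sequence (9.58% of the 50-base words of Fcgr3 also occur in another gene, Fcgr2b), so reads may have been split between them. Fcgr2b also overlaps the locus Gm38204.

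**Figure D2:**
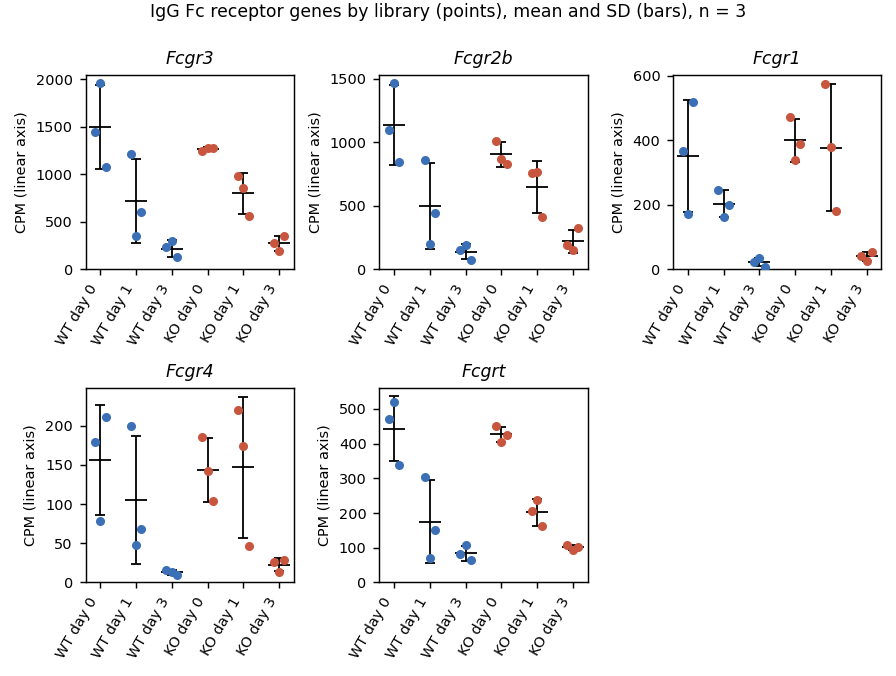
CPM (linear axes) of the 5 IgG Fc receptor genes in every library (points), with the mean and SD of each group of 3 (bars), for WT (blue) and KO (red) on days 0, 1 and 3. In all 5 genes the day 3 libraries lie below the day 0 libraries of the same label, and day 1 libraries are spread between or across them.

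Among the surface Toll-like receptors, 4 of 5 fell in each label, where 26.5% of all genes fell in WT and 22.3% in KO. Their median log2 fold change was -1.74 in WT and -1.37 in KO, beside -3.05 and -2.22 for the Fc receptors. Tlr2, which senses lipoproteins with Tlr1 or Tlr6, was the most abundant of them per length, at 43.5 FPKM in WT day 0. It stood at 176, 177 and 82.2 CPM in WT day 0 and at 55.7, 61.7 and 37.8 in WT day 3 (-1.49 ± 0.35, adjusted p = 0.0032). Its partners fell too. Tlr1 went from 92.6, 76.5 and 70.1 CPM to 18.4, 27.2 and 11.1 in WT (-2.08 ± 0.32, adjusted p = 0.00016), and Tlr6 from 43.2, 47.1 and 33.3 to 12.2, 14.4 and 9.82 (-1.76 ± 0.25, adjusted p = 9.1e-05). In KO the log2 fold changes were -1.37 ± 0.35 for Tlr2, -1.65 ± 0.32 for Tlr1 and -1.35 ± 0.25 for Tlr6 (adjusted p = 0.0068, 0.0011 and 0.00091). Tlr1 and Tlr6 are close copies (15.4% and 12.3% of their 50-base words are shared), so their separate values are uncertain. Tlr5, the flagellin receptor, rested on few libraries. Its WT day 0 values were 5.19, 17.1 and 4.79 CPM and its WT day 3 values 2.01, 3.65 and 2.47 (-1.74 ± 0.60, adjusted p = 0.026). Without WT day 0 library 2 the change was -0.85 (adjusted p = 0.24), and the call was also lost without WT day 3 library 1 or 3. In KO Tlr5 was not called, at 7.92, 2.38 and 6.26 CPM on day 0 and 4.41, 4.28 and 4.02 on day 3. Tlr4, the receptor for bacterial lipopolysaccharide, fell in KO (-2.54 ± 0.94, adjusted p = 0.041) and had a log2 fold change of -1.37 ± 0.89 in WT (adjusted p = 0.21). The KO value was -1.09 without KO day 0 library 2 (adjusted p = 0.35), and the call was also lost without any one of the KO day 3 libraries and with total counts. The WT change was -2.63 without WT day 3 library 2 (adjusted p = 0.047) and -1.52 with the replicate number as a block within each label (adjusted p = 0.035). The test of the difference between the labels gave an adjusted p of 0.95.

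The endosomal Toll-like receptors sense nucleic acids and, for Tlr11 and Tlr12, a protein of parasites. They fell in all 6 tested cases in WT (26.5% of all genes fell) and in 5 of 6 in KO (22.3%). Tlr9, the sensor of unmethylated DNA, stood at 127, 103 and 151 CPM in WT day 0 and at 10.1, 12.9 and 4.49 in WT day 3 (-3.79 ± 0.44, 13.9-fold lower, adjusted p = 2.1e-05). In KO it stood at 140, 68.3 and 96.4 against 11.9, 6.67 and 22.0 (-2.90 ± 0.42, adjusted p = 0.00017). Tlr8, a sensor of RNA, went from 282, 267 and 310 CPM to 40.1, 56.4 and 24.1 in WT (-2.83 ± 0.34, adjusted p = 2.5e-05). KO values fell from 260, 201 and 183 to 40.0, 27.9 and 57.1 (-2.36 ± 0.33, adjusted p = 0.00013). Tlr13, the mouse sensor of bacterial ribosomal RNA, was the most abundant of the class per length on day 0 and day 3 (62.7 and 32.6 FPKM in WT). Its CPM of 273, 151 and 434 in WT day 0 and 124, 156 and 70.1 in WT day 3 overlapped (-1.30 ± 0.40, adjusted p = 0.014). That call was lost without WT day 0 library 3 (-0.84, adjusted p = 0.083) or WT day 3 library 3 (-1.03, adjusted p = 0.067), and the KO call (-1.19 ± 0.39, adjusted p = 0.026) when KO library 2 or 3 of day 0, or 1 or 2 of day 3, was left out. Tlr7, which senses single-stranded RNA, fell by 2.35 ± 0.48 on the log2 scale in WT and by 2.31 ± 0.47 in KO, and Tlr3, which senses double-stranded RNA and signals through Ticam1, by 1.68 ± 0.26 and 1.27 ± 0.26. Tlr12 was scarce, at 1.32, 0.310 and 1.72 CPM in WT day 0, and had 0 counts in all 3 WT day 3 libraries, at least 6.70-fold lower with 3 counts set as the floor in each of them. In KO it went from 1.28, 0.538 and 3.86 CPM to 0.238, 0 and 0.453, which did not pass the test (adjusted p = 0.064, or 0.014 and 0.023 with the replicate block over all libraries and within each label).

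Genes that serve the Toll-like receptors were then counted. Of 27 genes of Toll-like receptor signalling, 16 fell in WT by day 3 (26.5% of all genes fell) and 2 rose (23.7%). In KO 16 fell (22.3% of all genes) and 1 rose (20.2%). The median log2 fold change of the 27 was -0.68 in WT. Ly86, which partners Cd180, changed most in WT, from a mean of 250.4 ± 24.3 (SD, n = 3) CPM to 24.7 ± 12.2 (-3.34 ± 0.35). Irf7, a transcription factor of interferon genes, fell by 2.90 ± 0.64 on the log2 scale, Ikbke, an IRF kinase, by 2.61 ± 0.39 and Ticam2, an adaptor of Tlr4, by 2.46 ± 0.32. Unc93b1, the chaperone that carries the endosomal receptors to their compartment, went from 1823 to 338 CPM (-2.43 ± 0.22, adjusted p = 4.4e-06). Traf6, the ubiquitin ligase that Toll-like receptors share with the RANKL receptor, rose from 57.4 to 76.7 CPM in WT (0.42 ± 0.15, adjusted p = 0.034) and stood at 52.1 and 56.0 CPM in KO (0.10 ± 0.15, adjusted p = 0.61).

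Promoter sequences are shown for 4 receptors to set those results beside the DNA they start from. RefSeq gives a promoter (250 bases before and 50 after the start, GRCm38.p6) for 42 of the 52 genes, and each was searched on both strands for 3 motifs, GAGGAAGT for PU.1 (the myeloid master factor), TGANTCA for AP-1 and, for interferon regulatory factors, GAAA repeated in the same direction with any 2 bases between. The PU.1 letters occurred in 6 of the 42 genes (14.3%) against 3.20% of 32851 promoters, the interferon letters in 7 (16.7%) against 3.44%, and the AP-1 letters in 3 (7.14%) against 7.81%. The units differ. A gene with several promoters was counted if any of them matched, whereas the 32851 are single promoters. Fcgr4 (chr1:171018676-171018975, plus strand) holds an interferon and a PU.1 match. Tlr9 (chr9:106222348-106222647, plus strand) holds an AP-1 and a PU.1 match. Both genes fell, but they are examples only. Of the 42 genes, 30 were called lower in WT at day 3, where 26.5% of all genes were. Among these 30, the PU.1 letters occurred in 5, the interferon letters in 4 and the AP-1 letters in 1. Over all 42 the counts were 6, 7 and 3. Whether a match goes with a fall was not tested. Clec4a1 (chr6:122921598-122921897, plus strand) and Clec4a2 (chr6:123122440-123122739, plus strand) belong to one lectin cluster, with Clec4a3, Clec4a4 and Clec4b1 between them. Clec4a1 fell and Clec4a2 was not called in WT. The Clec4a2 promoter shown lies inside the counted gene, whose annotated start is at 123106428. Clec4a1 holds none of the 3 motifs and Clec4a2 an AP-1 match. Matches are in capitals, and a match describes letters and not a bound site.
Fcgr4: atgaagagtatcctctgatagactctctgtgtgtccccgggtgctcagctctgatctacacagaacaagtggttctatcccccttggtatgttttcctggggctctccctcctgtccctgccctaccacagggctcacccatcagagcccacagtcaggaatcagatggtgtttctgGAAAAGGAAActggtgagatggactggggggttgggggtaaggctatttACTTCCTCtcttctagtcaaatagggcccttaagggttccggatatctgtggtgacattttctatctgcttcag
Tlr9: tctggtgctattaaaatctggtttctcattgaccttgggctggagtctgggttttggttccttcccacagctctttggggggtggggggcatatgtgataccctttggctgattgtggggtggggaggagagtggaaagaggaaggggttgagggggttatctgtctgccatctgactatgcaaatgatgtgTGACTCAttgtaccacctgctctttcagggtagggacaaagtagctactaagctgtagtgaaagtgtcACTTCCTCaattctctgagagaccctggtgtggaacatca
Clec4a1: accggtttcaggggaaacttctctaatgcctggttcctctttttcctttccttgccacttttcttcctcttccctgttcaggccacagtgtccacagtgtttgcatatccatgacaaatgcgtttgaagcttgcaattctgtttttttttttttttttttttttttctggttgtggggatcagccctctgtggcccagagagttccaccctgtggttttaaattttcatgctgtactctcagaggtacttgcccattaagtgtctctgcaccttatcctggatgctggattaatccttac
Clec4a2: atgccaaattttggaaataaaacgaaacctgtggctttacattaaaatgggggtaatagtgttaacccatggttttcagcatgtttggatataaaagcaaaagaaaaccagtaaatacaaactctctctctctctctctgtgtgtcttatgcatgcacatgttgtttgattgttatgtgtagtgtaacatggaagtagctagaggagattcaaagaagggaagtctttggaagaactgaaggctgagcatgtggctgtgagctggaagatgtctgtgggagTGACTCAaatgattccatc

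The Dectin-2 group lies in a row on chromosome 6 from Clec4a1 (122921848 to 122934619) to Clec4e (123281789 to 123289870). Of its 9 genes, 6 fell in WT (26.5% of all genes fell) and 7 in KO (22.3%). At one end of the row Clec4a1, a receptor of the Dcir family, stood at 415, 284 and 268 CPM in WT day 0 and at 20.6, 29.3 and 12.5 in WT day 3 (-3.95 ± 0.40, 15.5-fold lower, adjusted p = 8.6e-06). In KO it stood at 268, 312 and 225 and then at 41.0, 20.5 and 40.0 (-2.99 ± 0.38, adjusted p = 7.3e-05). It was the most abundant of the group per length on day 0 (187 FPKM in WT). Its neighbour Clec4a3 fell by 3.11 ± 0.28 on the log2 scale in WT and by 3.06 ± 0.28 in KO. Clec4b1 was scarcer, with 3.22, 2.09 and 3.58 CPM in WT day 0 and 0.361, 0.412 and 0 in WT day 3 (-3.48 ± 0.76, adjusted p = 0.0018). Its KO values were 5.49, 4.15 and 5.02 against 0.536, 0.489 and 0.453 (-3.29 ± 0.72, adjusted p = 0.0026). Clec4a2, which carries an inhibitory ITIM, lies between these genes and Clec4b2 and was nearly level in WT. It stood at 132, 119 and 95.3 CPM in WT day 0, 102, 124 and 123 in WT day 1, and 110, 99.4 and 117 in WT day 3. Its log2 fold change in WT was -0.09 ± 0.13 (adjusted p = 0.60), and 0.29 with libraries scaled by total counts. In KO it fell by 0.48 ± 0.13, from 107, 110 and 94.2 CPM to 82.3, 73.4 and 68.0 (adjusted p = 0.011), a call lost with total counts (-0.18, adjusted p = 0.36) and without KO day 0 library 2 (-0.41, adjusted p = 0.051). Part of Clec4a2 (6.69% of its 50-base words) is shared with Clec4a4 and Clec4b1.

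Clec4b2, next in the row, had 1.98, 0.929 and 1.5 CPM in WT day 0 and 0 counts in every WT day 3 library, which makes it at least 8.83-fold lower with 3 counts in each library as the floor. In KO it stood at 3.00, 3.23 and 7.35 CPM and then at 0.0596, 0 and 1.13 (-3.46 ± 1.16, adjusted p = 0.029), a call lost on leaving out KO library 3 of day 0, or 1 or 2 of day 3. At the far end of the row are the receptors that couple to Fcer1g and Syk in defence against fungi and mycobacteria. Clec4d went from 457, 391 and 272 CPM to 146, 161 and 67.3 in WT (-1.58 ± 0.37, adjusted p = 0.0032). The KO libraries went from 284, 488 and 255 to 119, 80.1 and 147 (-1.57 ± 0.37, adjusted p = 0.0045). It was the most abundant of the group per length on day 3 (60.7 FPKM in WT). Clec4n, which encodes Dectin-2 itself, fell by 1.53 ± 0.52 in WT (adjusted p = 0.025) and had a log2 fold change of -0.78 ± 0.51 in KO (adjusted p = 0.23). The WT call was lost without WT day 0 library 1 or 2 or WT day 3 library 1 or 3. Clec4e, or Mincle, had a log2 fold change of -1.46 ± 0.60 in WT (adjusted p = 0.057) and fell by 1.76 ± 0.61 in KO (adjusted p = 0.030). The KO call was lost on leaving out KO library 2 or 3 of day 0 or 1 or 2 of day 3, and a WT call appeared without WT day 0 library 3 (adjusted p = 0.031). Clec4a4, a receptor of the Dcir family, was not called (-1.98 ± 0.87 in WT and -1.92 ± 0.89 in KO, adjusted p = 0.069 and 0.094). With the replicate block within each label it was called in both (adjusted p = 0.034 and 0.044).

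**Figure D3:**
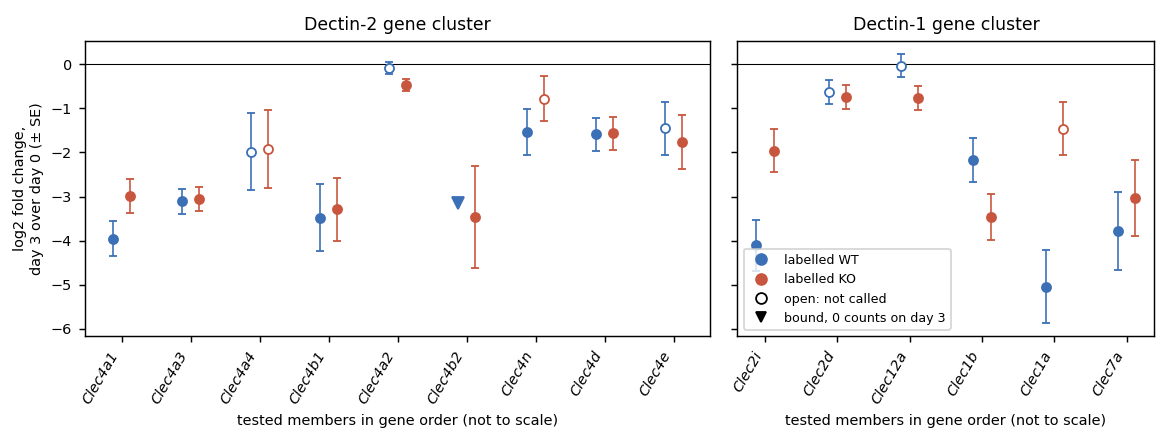
Log2 fold change of day 3 over day 0 (vertical axis, ± SE) of tested receptors in the order of their genes on chromosome 6, for the Dectin-2 cluster (left) and the Dectin-1 cluster (right), WT in blue and KO in red. Filled symbols were called, open ones were not, and the triangle is the bound for Clec4b2 in WT. In the left panel Clec4a2 stands near 0 between neighbours that fell by over 3 log2 units in WT.

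Of the Dectin-1 and Nkrp1-ligand group, 4 of 6 fell in WT (26.5% of all genes fell) and 5 of 6 in KO (22.3%). Clec7a (Dectin-1), the receptor for fungal beta-glucans, stood at 851, 352 and 318 CPM in WT day 0 and at 36.4, 59.0 and 15.3 in WT day 3 (-3.78 ± 0.89, adjusted p = 0.0031). In KO it stood at 432, 771 and 394 against 46.7, 31.5 and 117 (-3.03 ± 0.86, adjusted p = 0.012, or 0.053 without KO day 3 library 2). Its WT day 1 values of 1297, 88.6 and 218 CPM spanned a wide range. The highest of them is the library whose title has a double hyphen, and so is the highest WT day 0 value. Clec2i, a lectin of the Clec2 family that binds NK receptors of the Nkrp1 family, went from 14.6, 9.75 and 13.8 CPM to 1.14, 0.588 and 0.449 in WT (-4.11 ± 0.57, adjusted p = 7.1e-05). Its KO values were 21.3, 12.8 and 28.0 on day 0 and 3.99, 3.18 and 8.78 on day 3 (-1.96 ± 0.50, adjusted p = 0.0063). Clec1a, a receptor for fungal melanin, had 57 counts in all in WT day 0 and 2 in WT day 3, a ratio of 39.6 with a 95% counting interval of 10.5 to 335 (adjusted p = 0.00023). In KO it went from 2.00, 2.23 and 2.40 CPM to 0.655, 0.489 and 1.25 (-1.46 ± 0.59, adjusted p = 0.060, or 0.043 without KO day 3 library 3). Clec1b, the platelet podoplanin receptor, fell by 2.17 ± 0.49 in WT and by 3.47 ± 0.52 in KO. Platelet markers (5 genes) summed to 78.1 to 380 CPM in WT day 0 and 24.6 to 33.7 in WT day 3, and to 75.2 to 353 and 48.4 to 87.7 in KO, and their part in the Clec1b values was not tested.

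Clec12a and Clec2d changed least in this group. Clec12a, an inhibitory receptor for uric acid crystals, stood at 206, 137 and 336 CPM in WT day 0 and at 207, 198 and 256 in WT day 3 (-0.04 ± 0.26, adjusted p = 0.91), and the log2 fold change was 0.39 without WT day 0 library 3 (adjusted p = 0.18). In KO it went from 244, 249.7 and 287 CPM to 165, 181 and 114 (-0.76 ± 0.27, adjusted p = 0.032), a call lost with total counts and without any one of the 6 libraries except KO day 3 library 2. Clec2d, the ligand of the NK receptor Nkrp1d, stood at 123, 90.3 and 110 CPM in WT day 0 and 67.6, 66.3 and 74.3 in WT day 3 (-0.63 ± 0.27, adjusted p = 0.067, or 0.021 with the replicate block within each label). In KO it stood at 93.7, 140 and 69.5 against 75.2, 55.4 and 51.0 (-0.74 ± 0.27, adjusted p = 0.042). The KO call for Clec2d was lost on leaving out KO library 1 or 2 of day 0, or 2 or 3 of day 3. Clec2d had the highest FPKM of the group on day 3 (67.2 in WT and 57.0 in KO), and Clec7a on day 0 (129 and 139).

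The remaining Clec genes are unlike each other. Clec10a, the galactose lectin of macrophages, went from 345, 526 and 273 CPM to 29.2, 78.2 and 19.2 in WT (-3.18 ± 0.56, adjusted p = 0.00043). Under KO it fell from 471, 253 and 329 to 68.1, 35.9 and 64.1 (-2.65 ± 0.55, adjusted p = 0.0019). Of its sequence, 9.02% of the 50-base words are shared, mostly with its sister Mgl2. Clec11a, a secreted growth factor for bone-forming cells and blood progenitors, rose. Its 0.247, 0.464 and 0.93 CPM in WT day 0 became 2.48, 5.0 and 7.69 in WT day 3 (3.17 ± 0.66, 8.98-fold, adjusted p = 0.0013). In KO, 0.856, 0.923 and 2.26 CPM became 31.7, 35.5 and 8.50 (4.22 ± 0.64, 18.6-fold, adjusted p = 0.00023). Stromal markers rose over the same days, with 4 of 6 called higher in WT (23.7% of all genes) and 5 of 6 in KO (20.2%). Their sum was also highest in KO day 3, and their part in the Clec11a values was not tested. Clec16a, an endosomal protein that is no receptor, stood at 35.4, 37.9 and 28.5 CPM in WT day 0 and 26.4, 21.7 and 26.9 in WT day 3 (-0.44 ± 0.15, adjusted p = 0.023). That call was lost with total counts (-0.07, adjusted p = 0.71) and without WT day 0 library 1 or 2 or WT day 3 library 2, and in KO the change was -0.17 ± 0.15, or 0.13 with total counts. Clec5a, which signals through Tyrobp, was not called at day 3 (0.45 ± 0.31 in WT and -0.41 ± 0.30 in KO).

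The Siglecs included the receptor with the largest rise. Siglec15 was at the edge of detection on day 0, with 0.247, 0 and 0 CPM in WT and 0.143, 0.231 and 0 in KO. On day 3 it stood at 51.3, 46.7 and 69.0 CPM in WT (9.34 ± 0.81, adjusted p = 3.4e-06) and at 43.1, 57.6 and 23.0 in KO (8.30 ± 0.76, adjusted p = 9.8e-06). In counts, WT had 3 on day 0 and 3017 on day 3, a ratio of 724 with a 95% counting interval of 248 to 3514. On day 1 it was at 0.333, 0.541 and 1.72 CPM in WT, far below its day 3 level. Siglec1 (CD169), the sialic acid receptor of resident macrophages, had a mean of 379 FPKM in WT day 0, beside 355 for Fcgr3. Fcgr3 was the higher of the pair in WT day 0 libraries 1 and 2 and in the KO day 0 mean (308 against 297). The Siglec1 libraries of WT day 0 stood at 2035, 2475 and 4936 CPM. It held 2541, 3645 and 4215 CPM in WT day 1 and then stood at 818, 1124 and 396 in WT day 3 (-2.01 ± 0.48, adjusted p = 0.0035). In KO it went from 3450, 1086 and 2652 CPM to 850, 439 and 973 (-1.67 ± 0.48, adjusted p = 0.012), a call lost without KO day 0 library 1 (adjusted p = 0.059) or KO day 3 library 2 (adjusted p = 0.059).

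**Figure D4:**
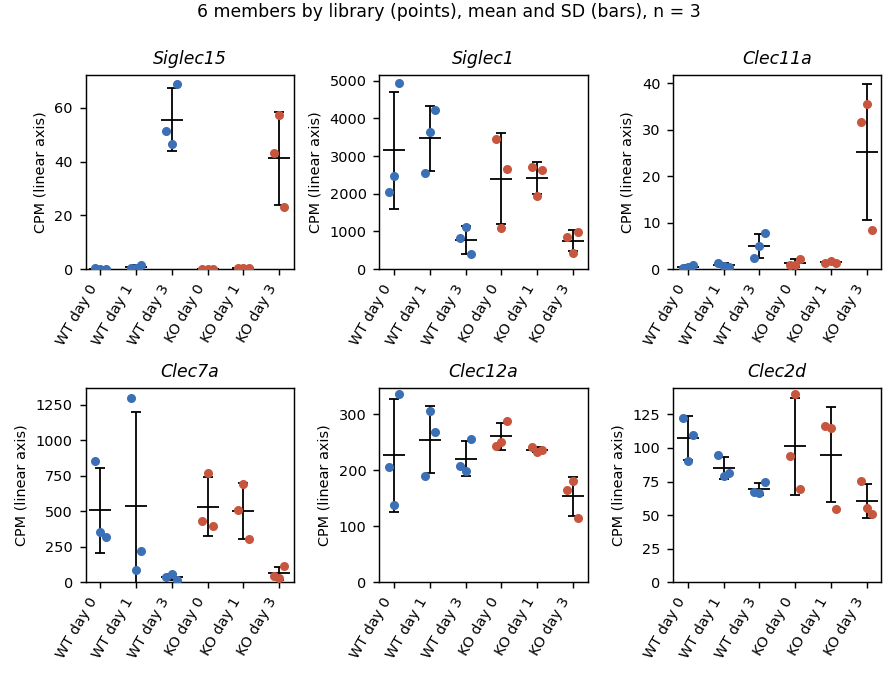
CPM (linear axes) of 6 receptors in every library (points), with the mean and SD of each group of 3 (bars, clipped at 0), for WT (blue) and KO (red) on days 0, 1 and 3. Siglec15 and Clec11a are high on day 3 only, the day 3 libraries of Siglec1 and Clec7a lie below the day 0 libraries of the same label, and Clec12a and Clec2d stay within a narrower range.

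The other Siglecs are markers of other leukocytes as well. Siglece, an inhibitory Siglec of neutrophils and macrophages, stood at 5.44, 6.73 and 6.08 CPM in WT day 0 and 2.53, 3.12 and 1.57 in WT day 3 (-1.34 ± 0.40, adjusted p = 0.014). That call was lost without WT day 3 library 3 (adjusted p = 0.063) and with total counts (adjusted p = 0.066). It fell by 1.65 ± 0.40 in KO (adjusted p = 0.0047). Siglecf, an inhibitory Siglec of eosinophils, had 51 counts in WT day 0 and 3 in WT day 3, a ratio of 23.6 with a 95% counting interval of 7.64 to 118. The call (adjusted p = 0.026) was lost without WT day 0 library 3 or WT day 3 library 2 or 3. Siglech, a Siglec of plasmacytoid dendritic cells, stood at 0.824, 2.94 and 2.22 CPM and then at 0.258, 0.235 and 0.224 (-3.02 ± 1.15, adjusted p = 0.040), a call lost without any one of the 6 libraries except WT day 0 library 1. Without the 5 double-hyphen libraries Siglech fell in KO as well (-2.01, adjusted p = 0.0062). With all libraries, in KO neither Siglecf (-1.0 ± 1.07) nor Siglech (-1.50 ± 1.05) passed the test. Markers of eosinophils, basophils and mast cells (8 genes) summed to 5.11 to 42.0 CPM in WT day 0, 31.9 to 276 in KO day 0 and 2.53 to 3.82 in WT day 3. Markers of plasmacytoid cells (6 genes) summed to 1.16 to 17.8, 6.23 to 13.8 and 1.29 to 3.31 CPM in the same groups, and the part of either in these values was not tested. Siglecg, an inhibitory Siglec of B cells, was not called in either label (-0.23 ± 0.77 in WT and -0.59 ± 0.75 in KO).

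The Cd300 family are paired receptors for lipids of the cell membrane. They fell in all 6 tested cases in WT (26.5% of all genes fell) and in 5 of 6 in KO (22.3%). Cd300a, an ITIM receptor for phosphatidylserine, went from 513, 418 and 195 CPM to 52.1, 73.2 and 25.1 in WT (-2.90 ± 0.54, adjusted p = 0.00059). It fell in KO from 318, 487 and 268 to 60.4, 46.4 and 90.2 (-2.45 ± 0.53, adjusted p = 0.0024). Cd300lb, an activating receptor that pairs with Tyrobp, was the most abundant of the family per length on day 0 and day 3 (111 and 29.2 FPKM in WT). Its values of 439, 501 and 345 CPM became 93.9, 108 and 61.2 in WT (-2.29 ± 0.27, adjusted p = 2.4e-05). In KO, 380, 408 and 339 became 89.9, 67.5 and 112 (-2.06 ± 0.27, adjusted p = 8.0e-05). The activating and the inhibitory gene both fell. Cd300lh went from 38.7, 52.2 and 74.8 CPM to 8.98, 12.9 and 5.11 in WT (-2.62 ± 0.40, adjusted p = 0.00014) and fell by 2.01 ± 0.39 in KO. However, 82.1% of its 50-base words occur in other Cd300 genes, so its counts cannot be assigned to it alone. Cd300lg was scarce, at 1.48, 1.01 and 0.644 CPM in WT day 0 and 0, 0.0588 and 0.281 in WT day 3 (-3.13 ± 0.84, adjusted p = 0.0067). Its KO call (-2.09 ± 0.76, adjusted p = 0.039) was lost without any one of the 6 libraries except KO day 3 library 1, and with the replicate block within each label (adjusted p = 0.053). Cd300ld, an activating member, fell by 2.54 ± 0.35 in WT and by 2.06 ± 0.35 in KO. Cd300lf, an inhibitory member of neutrophils and macrophages, fell by 2.51 ± 0.89 in WT (adjusted p = 0.029) and had a log2 fold change of -1.75 ± 0.83 in KO (adjusted p = 0.10). The WT call was lost without any one of the 6 libraries except WT day 0 library 2, and a KO call appeared without KO day 3 library 3 (adjusted p = 0.029). Its locus overlaps Rab37. Neutrophil markers fell from 737 to 3189 CPM in WT day 0 to 41.5 to 75.2 in WT day 3. Of the markers, 10 of 10 were called lower, where 26.5% of all genes fell, and their part was not tested.

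The partner chains and kinases that Fc receptors, lectins and Cd300 receptors share were counted in the same way. Of 21 genes of ITAM and ITIM signalling, 13 fell in WT (26.5% of all genes fell) and 2 rose (23.7%). In KO 17 fell (22.3% of all genes) and 3 rose (20.2%). In WT the adaptor Fcer1g went from 885 to 223 CPM (-1.99 ± 0.29, adjusted p = 0.00011) and Tyrobp from 887 to 291 (-1.61 ± 0.22, adjusted p = 5.6e-05). Both changes lie above the range of the Fc receptor genes in WT (-4.07 to -2.40). Src, the kinase that osteoclasts need for their ruffled border, rose from 11 to 216 CPM in WT (4.30 ± 0.42, adjusted p = 7.5e-06) and from 17.6 to 133 in KO (2.92 ± 0.40). Malt1, which links Syk to NF-kappaB, rose by 1.31 ± 0.22 on the log2 scale in WT and by 0.63 ± 0.22 in KO. Siglec15 thus rose while its adaptor Tyrobp fell.

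After 1 day of RANKL no receptor was called in either label, where 2.35% of all genes were called in WT and 0.0211% in KO. At an unadjusted p under 0.05 there were 8 in WT and 5 in KO, where 20.5% and 10.2% of all genes passed. DESeq2's Wald test called 3 in WT (Clec5a and Siglec15 higher, Fcgrt lower) and 0 in KO, where it called 8.57% and 1.19% of all genes. For a list of 47 these counts are near the shares over all genes. The lowest adjusted p in WT was that of Clec5a, at 12.4, 8.90 and 12.4 CPM on day 0 and 14.7, 38.3 and 25.3 on day 1 (1.21 ± 0.31, adjusted p = 0.054). Next was Fcgrt, at 304, 69.2 and 151 CPM on day 1 (-1.34 ± 0.37, adjusted p = 0.067). Fcgrt in KO stood at 207, 238 and 161 CPM on day 1, below all KO day 0 libraries (-1.08 ± 0.37, adjusted p = 0.35). One library weighed on this comparison. In the WT day 1 library with the double hyphen, Fcgr3, Fcgr2b, Fcgrt and Clec7a were 1209, 863, 304 and 1297 CPM, the highest of the group in each case. Without it 6 receptors were called, with Clec5a and Siglec15 higher and Clec1b, Fcgr3, Fcgrt and Fcgr2b lower, and so were 12.4% of all genes, a like share. Without WT day 0 library 3, Clec5a was called higher and Fcgrt lower, beside 7.35% of all genes. Over both labels, the mean CPM was highest on day 0 in 39 of the 52 members, on day 1 in 10 and on day 3 in 3. The 10 included Siglec1, Clec4d, Clec12a and Tlr13, for which day 1 and day 0 libraries overlapped in WT.

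No receptor was called between KO and WT within a day, where 0.119% of all genes were called on day 0, 0.112% on day 1 and 0.140% on day 3. At an unadjusted p under 0.05 there were 2, 3 and 9, where 7.59%, 7.90% and 10.7% of all genes passed. DESeq2 called 0, 1 (Clec4e higher) and 5 (Clec1a, Clec2i, Siglecf and Clec11a higher, Clec4a2 lower), where it called 0.449%, 0.534% and 1.65% of all genes. Averaged over the 3 days, 3 were higher in KO, where 1.14% of all genes were higher, and 1 was lower, where 0.442% were lower. Clec2i was higher in KO by 1.46 ± 0.29 on the log2 scale (adjusted p = 0.028), with day 1 values of 11.7, 6.80 and 4.20 CPM in WT and 9.42, 8.66 and 21.5 in KO beside the day 0 and day 3 values above. Clec1a was higher by 1.73 ± 0.39 (adjusted p = 0.047), mostly on day 3, where KO had 41 counts and WT 2, a ratio of 21.9 with a 95% counting interval of 5.68 to 187. Siglece was higher by 1.00 ± 0.23 (adjusted p = 0.047), at 12.7, 8.38 and 21.0 CPM in KO day 0, 6.92, 8.45 and 9.88 in KO day 1 and 4.41, 2.02 and 6.97 in KO day 3, against 4.0, 4.69 and 4.76 in WT day 1. The labels did not overlap for Siglece on days 0 and 1 and overlapped on day 3. Clec4a2 was lower by 0.33 ± 0.08 (adjusted p = 0.048), with 94.4, 105 and 85.1 CPM in KO day 1. All 4 lie near the threshold. In other settings the call was lost in 8 of 27 for Clec2i, 17 of 26 for Clec1a, and 19 of 27 for Siglece and for Clec4a2. Leaving out 1 library gave 0 to 9 called receptors. The count was 0 on leaving out WT library 2 of day 0, or 1 (single hyphen) or 2 of day 1. It was also 0 without WT library 2 or 3 of day 3, or KO library 1 or 3 of day 0. In the fits with a count of 0, 0.529% to 0.771% of all genes were called. The count was 1 without any one KO day 1 library, KO day 3 library 1 or 3, WT day 0 library 1 or WT day 3 library 1. In the fits with a count of 1, 0.454% to 1.06% of all genes were called. The count was 6 without WT day 0 library 3, where 10.5% of all genes were called. It was 9 without the WT day 1 library with the double hyphen, where 4.82% were. Neutrophil markers also stood higher in KO, at 399 to 2286 CPM in WT day 1 against 1529 to 3348 in KO day 1, and 41.5 to 75.2 in WT day 3 against 106 to 1221 in KO day 3, and their part in the Siglece values was not tested.

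The response to 3 days of RANKL was not called as different between the labels for any receptor, nor for any of the 14241 genes (0%), by edgeR's test of the interaction, and DESeq2 called 0 receptors and 0.0281% of all genes. At an unadjusted p under 0.05 there were 2 receptors, Clec1a (3.58 ± 1.02) and Clec2i (2.15 ± 0.72), both at an adjusted p of 0.91, beside 769 of all genes (5.40%). Both fell less in KO. For the Fc receptors the interaction was 0.32 to 1.00 on the log2 scale with adjusted p of 0.93 to 0.98.

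**Figure D5:**
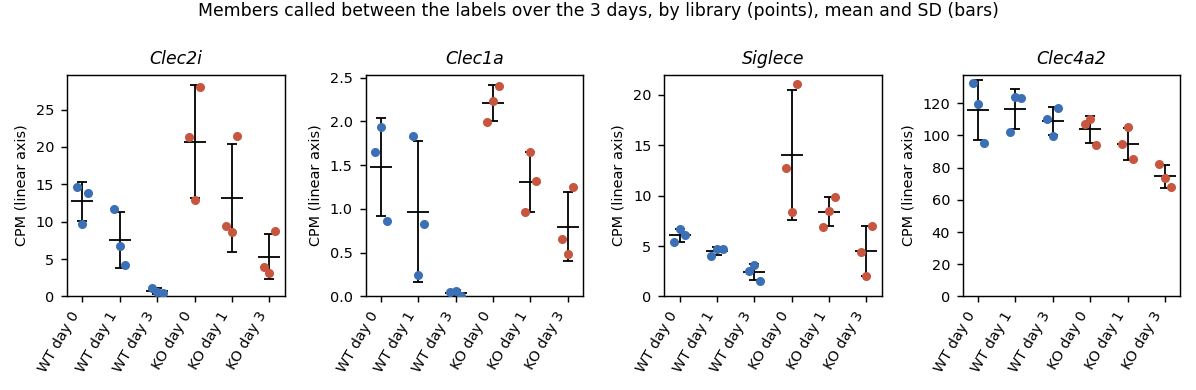
CPM (linear axes) of the 4 receptors called between the labels over the 3 days, in every library (points), with the mean and SD of each group of 3 (bars), WT in blue and KO in red. KO libraries lie above WT on day 3 for Clec2i, on days 0 and 3 for Clec1a, on days 0 and 1 for Siglece, and below WT on day 3 for Clec4a2.

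Set side by side per length, the classes stood as follows. The summed FPKM of the 5 Fc receptors was 948 ± 88.6 (SD, n = 3) in WT day 0, ahead of the Dectin-2 group with 518 ± 82.4, the Siglecs with 382 ± 203, the Cd300 family with 321 ± 54.7 and the Dectin-1 group with 245 ± 72.0. On WT day 3 the sums were 164 ± 54.2 for the Fc receptors, 177 ± 40.7 for the Siglecs, 149 ± 45.5 for the Dectin-2 group, 120 ± 6.10 for the Dectin-1 group and 71.4 ± 21.4 for the Cd300 family. On that day the first 3 classes do not differ beyond their spread. The endosomal Toll-like receptors summed to 148 ± 46.5 FPKM in WT day 0 and 46.7 ± 16.7 in WT day 3. The surface Toll-like receptors summed to 72.3 ± 22.6 and 30.9 ± 9.37, and the other Clec genes to 64.5 ± 21.5 and 16.1 ± 5.74. In WT day 3 Siglec15 contributed 56.7 FPKM to the Siglecs, close to Fcgrt (56.5) and Clec4d (60.7), whereas on WT day 0 it had 0.061.

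The 5 members without enough counts for the test were Cd300c, Cd300e, Clec9a, Tlr11 and Clec14a. Cd300c, Cd300e, Clec9a and Tlr11 had at most 1.28 CPM in any library. Clec14a, a gene of endothelial cells, reached 0.953 CPM in KO day 3, and endothelial markers (5 genes) summed to 22.5 to 85.5 CPM there and 5.21 to 16.4 in WT day 3. Clec1b and Clec9a overlap each other in the annotation, as do Clec2i and BC035044, so reads in the shared stretch cannot be told apart without strand.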

How the data were processed

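RNA libraries from BMDMs were prepared by the authors with a SMARTer messenger RNA kit from column-purified total RNA. The authors deposited, for each gene and library, a read count (whole numbers) and an FPKM value, which the methods attribute to StringTie and Ballgown. The submitters' notes name GRCm38.p4 and mm10, and the aligner, counter and strand setting were not given in the sources used here.

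The count table went into edgeR 4.0.16 under R 4.3.3 (filterByExpr, TMM, glmQLFit, glmQLFTest), with all 18 libraries as 6 groups. Adjusted p-values are Benjamini-Hochberg values over 14241 genes. The study's own threshold (unadjusted p under 0.05, fold above 1.5 or below 0.66), DESeq2 1.42.0, other filters and scalings, replicate blocks, title style and leaving out each library were alternatives. CPM used TMM-adjusted totals. FPKM served only to compare genes. SE came from the quasi-likelihood F statistic. Fits were tested on simulated data. Intervals and floors (3 counts) cover counting error only.

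Members and gene lists were chosen with earlier results of these data known. Named in full were, per class, up to 3 called, non-overlapping members of at least 1 CPM with the largest WT day 3 change, all Fcgr genes, those called between labels, and the highest by FPKM. Clec12a, the Tlr4 pattern and others were named after their values were seen. Same-number libraries deviated together between KO days 0 and 3 (r = 0.13 to 0.398) and KO days 1 and 3 (0.156 to 0.34). Within groups, replicates differed by 17.9 to 164 chi-square units per degree of freedom, so none was a copy. Positions of 49 of 52 members equalled those of a GRCm38 annotation.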

Additional observations from a re-analysis of the deposited data

How the results depend on the processing

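Counts of receptors called at day 3 stayed within 1.5 times the main count in all settings. They were 31 to 42 in WT (main 39) and 29 to 40 in KO (main 36). Of all genes, 31.2% (no filter) to 55.7% (stricter filter) were called in WT (main 50.2%). In KO 25.6% to 47.6% were called in the same settings (main 42.5%). The 31 came from the stricter filter, which leaves out receptors under 5 CPM, such as Clec1a. Leaving out 1 library gave 32 to 38 in WT (39.4% to 52.6% of all genes) and 29 to 36 in KO (30.6% to 36.0%). Between the labels, averaged over days, the main count was 4 (1.59% of all genes). Shares over all genes stand in brackets after each count below. The count was 2 without a filter (0.852%), 1 with the stricter filter (0.993%) and 8 with DESeq2 (6.89%). It was 2 with the replicate block over all libraries (1.94%) and 7 with title style as a covariate (9.68%). The study's threshold gave 10 (8.73%), total counts gave 2 (1.07%), and leaving out the 5 double-hyphen libraries gave 2 (2.28%). Leaving out 1 library gave 0 to 9 (0.454% to 10.5%). In WT on day 1 (main 0, 2.35%) the count was 1 with the stricter filter (3.45%), 3 with DESeq2 (8.57%) and 2 with title style (7.03%). It was 2 with the libraries numbered 1 averaged (3.88%), 8 at the study's threshold (11.2%) and 3 without the double-hyphen libraries (7.0%). Leaving out 1 library gave 0 to 6 (0% to 12.4%). The study's threshold also gave 5 in KO on day 1 (5.05%), 2, 2 and 8 between the labels on days 0, 1 and 3 (3.95%, 4.70% and 5.69%), and 2 in the interaction (3.39%), where the main counts were 0. DESeq2 gave 1 between the labels on day 1 (0.534%) and 5 on day 3 (1.65%). On day 3, averaging the libraries numbered 1 gave 1 (0.151%) and the replicate block over all libraries 1 (0.14%). The cause was not tested.

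The replicate block within each label called 37 receptors in KO at day 3 (42.3% of all genes) against 36 without it (42.5%). WT numbers do not pair the libraries by the rule used.

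Single log2 values that changed sign were not called. At day 3 in WT, Clec4a2 (main -0.09) was 0.29 with total counts, 0.080 without the double-hyphen libraries and -0.18 to 0.050 leaving out 1 library. Clec12a (main -0.04) was 0.0033 with the stricter filter, 0.0056 with DESeq2 size factors and with DESeq2, 0.039 with the replicate block within each label, 0.32 with total counts, and -0.26 to 0.39 leaving out 1 library. Siglecg (main -0.23) was 0.19 with the replicate block over all libraries, 0.045 with that within each label, 0.14 with total counts, 0.016 without the double-hyphen libraries, and -0.69 to 0.30 leaving out 1 library, and in KO -1.33 to 0.013. Clec16a in KO (main -0.17) was 0.13 with total counts. Between the labels, averaged over days, Tlr2 was -0.053 with title style and -0.30 without the double-hyphen libraries, where Siglec15 was 0.63 and Tlr1 -0.029. Leaving out 1 library, Cd300a ranged over -0.025 to 0.33, Cd300lh over -0.20 to 0.033, Clec2d over -0.14 to 0.050, Siglech over -0.26 to 0.92, Tlr13 over -0.028 to 0.22, Tlr9 over -0.04 to 0.25, Fcgr3 over -0.033 to 0.28, Siglec15 over -0.53 to 0.83, and Tlr2 over -0.059 to 0.13. Over all genes, total counts turned 3370 higher and 3773 lower in WT at day 3 into 5153 and 2221. Receptors under about 1 CPM rest on few counts.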

Other observations

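Tlr4 split its libraries in a way the groups do not explain, a pattern picked out after its values were seen. It stood at 105, 82.6 and 44.3 CPM in the WT libraries numbered 2 on days 0, 1 and 3 and at 86.8 CPM in KO day 0 library 2, against 4.93 to 29.8 CPM in the other 14 libraries. The other WT libraries held 29.8 and 23.5 CPM on day 0, 18.3 and 15.2 on day 1, and 9.60 and 7.41 on day 3. Among libraries labelled KO, number 2 was not high on day 1 (13.7 CPM) or day 3 (5.14 CPM). Within either set of WT libraries, day 3 was lower than day 0.

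Clec4e differed between the labels on day 1 by 2.49 ± 0.61 on the log2 scale in edgeR's fit (adjusted p = 0.30), with 2.75, 1.80 and 3.38 CPM in WT and 26.0, 14 and 4.59 in KO. The 3 KO libraries lay above the 3 WT libraries.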
